A study of Notophthalmus viridescens with 3 samples.

Results

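The miR-200 family, with miR-203 and miR-205, was read on miRNA arrays of the regenerating heart of the newt Notophthalmus viridescens. Members were the miRNA probes named miR-200a, miR-200b, miR-200c, miR-141, miR-429, miR-203, miR-203b or miR-205 for any species, with the passenger-strand probes (names ending in *) left out. The rule took 14 probes of 8 miRNA names, out of 1365 miRNA probes of 1242 names on each array. It goes by name and uses no measured value, but the members were chosen with earlier results of these data known. Total RNA came from whole hearts of adult animals that were uninjured, at 7 days post injury (dpi) or at 21 dpi, after a heart injury that the labels cite but do not describe. No genotype, strain or drug is labelled in any group, and no sham-operated heart was labelled. Each group was 1 sample on 1 array, with 0.5 µg of RNA assayed, and the number of animals behind each sample is not stated. The 3 spots of a probe on an array are therefore technical repeats, no test between groups was possible, and errors below are spreads of spots.

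A miRNA binds target messenger RNAs mainly through its seed, bases 2 to 8, and lowers their translation and stability. The miR-200 family is known from mammals and zebrafish for high levels in epithelia, where it holds down the transcription factors ZEB1 and ZEB2 and so keeps E-cadherin on. miR-203 is a skin miRNA that restrains the progenitor factor p63 in mice, and miR-205 is a miRNA of stratified and glandular epithelia that also targets the ZEB factors. Heart muscle is not an epithelium, while the epicardium that covers the heart is a mesothelial sheet that loosens in part into migrating cells after injury.

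The array carried probes designed for human (hsa), zebrafish (dre), Xenopus tropicalis (xtr) and Xenopus laevis (xla) miRNAs, so newt miRNAs were read through probes of other species. The mature sequences below, from the deposited array files, are those of the 5 probes detected on at least 1 array and of 5 others detected on none, 4 that share a seed with a detected probe and the only miR-205 probe. The capitals mark the seed.
xtr-miR-200b: uAAUACUGccugguaaugaugau
hsa-miR-200b: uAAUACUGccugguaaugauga
dre-miR-200c: uAAUACUGccugguaaugaugc
hsa-miR-200c: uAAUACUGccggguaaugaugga
xtr-miR-429: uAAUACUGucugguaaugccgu
dre-miR-141: uAACACUGucugguaacgaugc
hsa-miR-200a: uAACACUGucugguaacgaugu
xtr-miR-203: gUGAAAUGuuuaggaccacuug
hsa-miR-203: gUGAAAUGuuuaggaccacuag
hsa-miR-205: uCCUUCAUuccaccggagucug

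The 14 sequences fell into 4 seeds and were 21 to 23 bases long. AAUACUG was the seed of 7 probes (miR-200b, miR-200c and miR-429), AACACUG of 3 (miR-141 and miR-200a), UGAAAUG of 3 (miR-203 and miR-203b) and CCUUCAU of 1 (miR-205). Several probes differed by a single base, with positions counted from 1 at the 5′ end. Against xtr-miR-200b, the sequence of hsa-miR-200b was the same over its 22 bases and lacked the last base, dre-miR-200c ended 1 base earlier and differed at A22C, and hsa-miR-200c differed at U11G, A22G and U23A. Against dre-miR-141, hsa-miR-200a differed at C22U. Against xtr-miR-203, hsa-miR-203 differed at U21A and dre-miR-203b at U11C. Probes this close may read the same RNA and are not independent, although the counts below are of probes. The brightness of different probes was not compared as abundance.

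The arrays showed the miRNAs of heart muscle. Probes for miR-1, miR-133a, miR-133b, miR-208b and miR-499, which are miRNAs of striated or cardiac muscle, were detected on all 3 arrays, 8 of the 10 heart muscle probes in each heart. The probes hsa-miR-208a and xtr-miR-208 were detected on none. Detection needed a median spot brighter than 95% of the 587 empty spots on the same array, that is, brighter than 73.8 intensity units in the uninjured sample, 77.5 at 7 dpi and 103 at 21 dpi. By this rule 225, 220 and 180 of the 1365 miRNA probes were detected. The arrays differed in brightness. The 169 probes detected on all 3 had a median signal above the empty spots of 408 units in the uninjured sample, 146 at 7 dpi and 533 at 21 dpi, and before normalization their median log2 level differed from that of the uninjured array by -1.09 at 7 dpi and 0.35 at 21 dpi. After quantile normalization these shifts were -0.13 and 0.00.

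The epithelial miRNAs were at or close to background in all 3 hearts. Of the 14 probes, 5 were detected in the uninjured sample (35.7%, against 16.5% of all miRNA probes), 3 at 7 dpi (21.4%, against 16.1%) and 1 at 21 dpi (7.14%, against 13.2%). With only the probe of highest mean level kept for each of the 8 names, 4, 3 and 1 were detected. The median spots of the 14 probes ran between 59.8 and 99.9 units in the uninjured sample, 62.5 and 81.5 at 7 dpi and 55.4 and 106 at 21 dpi. The empty-spot medians were 68.0, 71.7 and 71.4 units, and 7, 9 and 9 of the 14 probes lay below them. Of all miRNA probes, 78.2%, 76.4% and 82.6% lay below them, so the 14 probes did so less often than miRNA probes in general. Some empty spots, 4 in the uninjured sample, 11 at 7 dpi and 28 at 21 dpi, were brighter than the median spot of every one of the 14 probes. The probe hsa-miR-1, given only to show the range of the arrays, had median spots of 14450, 3934 and 8401 units. In whole-heart RNA, fewer cells that make a miRNA and less of it per cell cannot be told apart.

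Counted by single spots, 13 of the 42 spots of the 14 probes exceeded the detection level in the uninjured sample (31.0%), 6 at 7 dpi (14.3%) and 2 at 21 dpi (4.76%). Over all miRNA spots these shares were 16.6%, 16.5% and 14.1%, and over the empty spots 5.11% on each array by construction of the level. The detection level differed most at 21 dpi, where it stood 31.7 units above the empty-spot median, against 5.81 units above it on both other arrays. A level set from the dark miRNA probes in place of the empty spots was an alternative added after seeing the data. At 21 dpi it was 68.9 units, below the empty-spot median of 71.4, so it passed probes dimmer than that median. With it, 6, 3 and 6 of the 14 were detected. These were 42.9%, 21.4% and 42.9% of the 14 probes, beside 17.9%, 16.3% and 19.2% of all miRNA probes, so the share at 21 dpi stood below or above that of all probes depending on the rule.

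**Figure D1:**
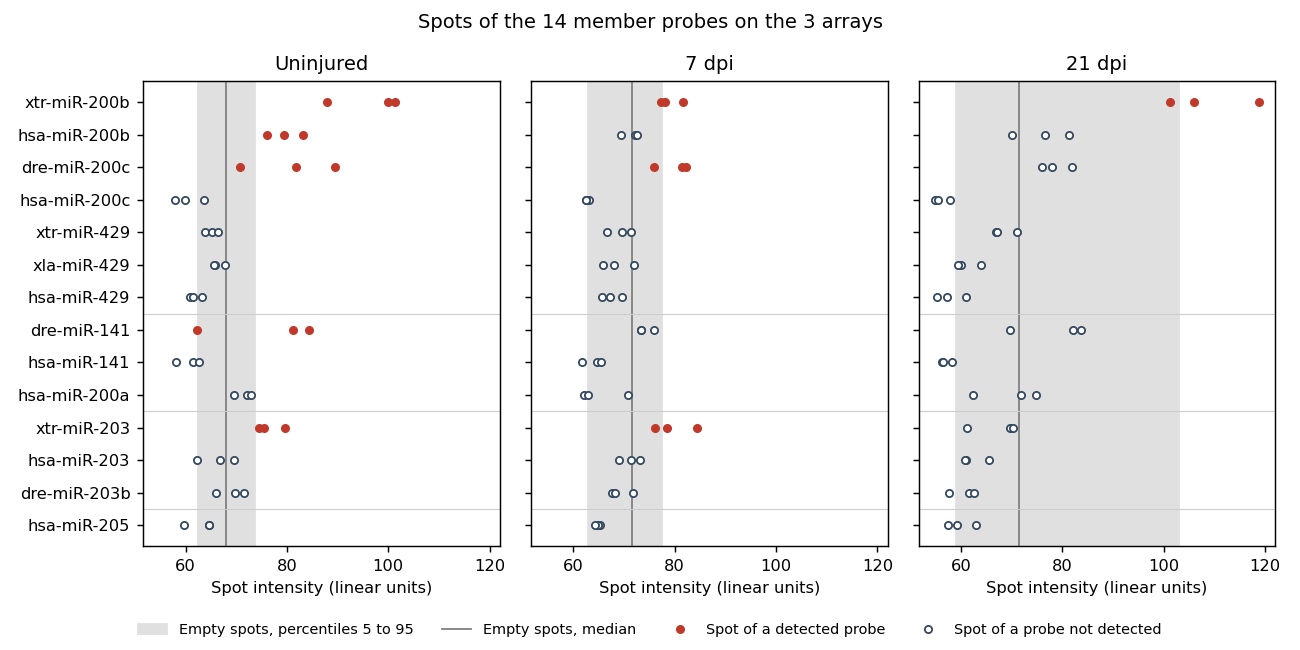
Each point is 1 spot of 1 of the 14 probes, with spot intensity in linear units on the horizontal axis and 1 panel per array (uninjured, 7 dpi, 21 dpi). The grey band spans percentiles 5 to 95 of the empty spots and the line is their median. Filled points belong to detected probes, and lines separate the 4 seeds. Most spots lie inside or left of the band. At 21 dpi xtr-miR-200b has spots right of it at 106 and 119 units, while its 101-unit spot lies inside.

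The seed AAUACUG held 3 of the 5 detected probes. miR-200b represses ZEB1 and ZEB2 in mammals. Its Xenopus tropicalis design was the only one of the 14 probes detected in all 3 hearts by the rule above. At 7 dpi its median of 78.1 was just over the level of 77.5. It was not detected there above the highest empty spot, with all spots required over the level, or against the nearest empty spots. With the level from dark miRNA probes, dre-miR-200c and xtr-miR-203 were also detected in all 3 hearts. The spots of xtr-miR-200b read 88.0, 99.9 and 101 units in the uninjured sample, 77.4, 78.1 and 81.8 at 7 dpi and 101, 106 and 119 at 21 dpi. The 7 dpi spots were below those of both other hearts without overlap, while the uninjured and 21 dpi spots overlapped at 101. Above the empty-spot median this was 28.5 ± 7.34 units in the uninjured sample, 7.41 ± 2.34 at 7 dpi and 37.3 ± 9.15 at 21 dpi (SD, n = 3 spots). The 119-unit spot had a pixel SD of 71.7 units, against a median of 5.15 over the 42 spots of the 14 probes on that array. Without it the probe was still detected at 21 dpi, by a small margin, with its other spots at 101 and 106 units on either side of the level of 103.

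The human design of miR-200b, whose sequence is that of the frog design without its last base, was detected in the uninjured sample only. Its spots read 76.0, 79.4 and 83.3 units there, 69.5, 72.1 and 72.6 at 7 dpi and 70.0, 76.5 and 81.3 at 21 dpi. The 7 dpi spots lay below the uninjured ones without overlap, and the 21 dpi spots spanned both. Above the empty-spot median the means were 11.6 ± 3.63, -0.26 ± 1.66 and 4.58 ± 5.65 units in that order (SD, n = 3 spots).

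The zebrafish design of miR-200c, which shares the seed and the ZEB targets of miR-200b, was detected in the uninjured and 7 dpi hearts. Its spots read 70.8, 81.8 and 89.5 units in the uninjured sample, 76.0, 81.5 and 82.2 at 7 dpi and 75.9, 78.0 and 82.0 at 21 dpi. The spots of the 3 hearts overlapped, and its 21 dpi median of 78.0, not detected there, lay above the detection levels of both other arrays. The human design of miR-200c and the 3 designs of miR-429, the family member encoded beside miR-200a and miR-200b in human and mouse, were detected in no heart. Of these, hsa-miR-200c had median spots of 59.8, 62.5 and 55.4 units, and xtr-miR-429 had median spots of 65.2, 69.7 and 67.2 units, under the empty-spot median each time.

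The seed AACACUG differs from AAUACUG by a single base. Of its 3 probes, dre-miR-141 was detected in the uninjured sample only, and its spots there were split, at 62.3, 81.3 and 84.3 units. At 7 dpi they read 73.3, 73.3 and 76.0 units and at 21 dpi 69.7, 82.1 and 83.7, inside the range of the uninjured spots in both cases. miR-141 is encoded beside miR-200c in human and mouse. Its human design was detected in no heart, with median spots of 61.6, 64.8 and 56.5 units. The probe of miR-200a, listed with 1 sequence for human, Xenopus tropicalis and zebrafish, missed the detection level with spots of 69.6, 72.2 and 73.0 units in the uninjured sample, 62.2, 62.9 and 70.8 at 7 dpi and 62.3, 71.8 and 74.8 at 21 dpi. Its median of 72.2 was the nearest below the uninjured detection level, and the median of xtr-miR-203, 75.5, the nearest above it. At 7 dpi the nearest on either side were xtr-miR-200b at 78.1 and dre-miR-141 at 73.3, and at 21 dpi xtr-miR-200b at 106 and dre-miR-141 at 82.1.

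The skin miRNA miR-203 has the seed UGAAAUG, unrelated to those of the miR-200 family. Its frog design, whose sequence is also that of zebrafish miR-203a, was detected in the uninjured and 7 dpi hearts. The spots read 74.6, 75.5 and 79.7 units in the uninjured sample, 76.1, 78.4 and 84.4 at 7 dpi and 61.1, 69.8 and 70.2 at 21 dpi. The 21 dpi spots lay below all spots of both other hearts. Above the empty-spot median the means were 8.62 ± 2.71, 7.96 ± 4.29 and -4.35 ± 5.11 units (SD, n = 3 spots). The median spot over all miRNA probes was also lowest at 21 dpi, at 63.8, 68.1 and 59.8 units in the same order. With the level set from dark miRNA probes, xtr-miR-203 was detected in all 3 hearts. At 21 dpi that level was 68.9 units, below the empty-spot median of 71.4, and so was the median spot of xtr-miR-203. The human design, which differs at U21A, and dre-miR-203b were detected in no heart, and their median spots were 66.7, 71.4 and 60.9 units for hsa-miR-203 and 69.7, 68.2 and 61.5 for dre-miR-203b.

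miR-205 was represented by 1 probe, whose sequence is listed for human, both Xenopus species and zebrafish, and it was detected in no heart. Its spots read 59.7, 64.6 and 64.6 units in the uninjured sample, 64.3, 64.9 and 65.3 at 7 dpi and 57.4, 59.2 and 63.0 at 21 dpi. All 9 lay below the empty-spot median of their array.

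No member was called different by the rule used, a log2 difference of at least 1 (2-fold) in normalized level with detection on at least 1 of the 2 arrays and no overlap of spots. At 7 dpi over uninjured, 0 of the 5 probes detected on either array were called, where 8.63% of the 255 miRNA probes so detected were called higher and 3.92% lower. For 21 dpi over uninjured, 0 of 5 were called, beside 0.870% called higher and 2.17% lower of 230. For 21 dpi over 7 dpi, 0 of 3 were called, beside 3.90% called higher and 8.66% lower of 231. These counts of 0 carry little weight for decreases. The members stood at most 0.83 log2 units above the dimmest miRNA probe in the uninjured sample, 0.54 at 7 dpi and 0.86 at 21 dpi, so a 2-fold fall could not appear on this scale.

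At 7 dpi over uninjured, the 5 probes had differences between -0.31 and 0 and a median of -0.11, equal to the median of -0.11 over all 255. xtr-miR-200b had a normalized level of 6.22 at 7 dpi and 6.53 in the uninjured sample, a log2 difference of -0.31 ± 0.07 (± here and below is the SE over the spots of both arrays). hsa-miR-200b differed by -0.28 ± 0.05. It was detected in the uninjured sample only, and its level there was 1.09-fold above the lowest detected level at 7 dpi. Spots of these 2 did not overlap between the hearts, which was also so for 68.6% of all 255 probes. dre-miR-141 differed by -0.11 ± 0.15, within its spot error and with overlapping spots. Its uninjured level was 1.03-fold above the lowest detected level at 7 dpi. No spot error is counted in that figure, so it sets no lower bound on the fold. The differences of dre-miR-200c, -0.05 ± 0.11, and of xtr-miR-203, 0 ± 0.06, were within their spot errors.

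The direction for xtr-miR-200b at 7 dpi was below 0 under all 13 other processings run, between -1.02 and -0.02. That for hsa-miR-200b was below 0 under 9 of them and exactly 0 under the 4 that set dim values to a floor. For xtr-miR-200b the floor settings scaled to shared miRNA, 5S rRNA or spike-in probes gave -0.02 each. These -0.02 values rest on 1 uninjured spot, 33.4 units above the empty-spot median and just over the floor of 32. dre-miR-200c and xtr-miR-203 took both signs, with ranges of -0.12 to 0.22 and -0.04 to 0.44. The size for xtr-miR-200b can be set against the lower miRNA signal of the 7 dpi array. In signal above the empty spots and without normalization, its log2 ratio of 7 dpi over uninjured was -1.94, while the median of the other 168 probes detected on all arrays was -1.42. Of those probes, 16.7% had a lower ratio. The control probes of the same arrays did not show this shift, with ratios of 0.19 for the spike-in probes and -0.31 for the 5S rRNA probes. In the authors' deposited processed intensities it read 16.7 at 7 dpi and 34.0 in the uninjured sample, and hsa-miR-200b 5.31 and 15.7. On these values, which have no replicate spots, both differences exceeded 2-fold, at -1.02 and -1.56 on the log2 scale.

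At 21 dpi over uninjured, the median of the 5 probes was -0.14, beside -0.06 over all 230. xtr-miR-203 differed by -0.24 ± 0.07 on the log2 scale, lower at 21 dpi. It was the 1 of these 5 whose spots did not overlap, beside 54.8% of all 230 probes. This difference was below 0 under 9 of the 13 other processings, reaching -1.05 in the authors' deposited values, and exactly 0 under the 4 with a floor. hsa-miR-200b differed by -0.16 ± 0.07, dre-miR-200c by -0.14 ± 0.11 and dre-miR-141 by -0.06 ± 0.17, all with overlapping spots. For these and for xtr-miR-203, which were not detected at 21 dpi, the detection level of that array was too high for a lower bound on the fold.

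xtr-miR-200b had nearly the same level in both, 6.56 at 21 dpi and 6.53 in the uninjured sample (0.03 ± 0.10). Across the 13 other processings its difference was above 0 under 4, below 0 under 8 and 0 under 1, with a range of -0.30 to 0.24. Its unnormalized log2 ratio of signal above the empty spots was 0.39. The median over the other 168 probes detected on all arrays was also 0.39. The control probes of the same arrays had higher ratios, 1.477 for the spike-in probes and 0.549 for the 5S rRNA probes. The ratio of xtr-miR-200b lay below both control ratios, and so did the median of the other 168 probes. These ratios count no spot error, and the uninjured and 21 dpi spots of xtr-miR-200b overlapped.

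At 21 dpi over 7 dpi, the 3 probes detected on either array had differences of 0.34 ± 0.07 (xtr-miR-200b), -0.09 ± 0.05 (dre-miR-200c) and -0.24 ± 0.08 (xtr-miR-203). Their median was -0.09, beside 0.05 over all 231. The spots of xtr-miR-200b and xtr-miR-203 did not overlap between the hearts, as for 69.3% of all 231 probes. xtr-miR-200b was above 0 under 12 of the 13 other processings and 0 under the other one, scaling to the spike-in probes with a floor. xtr-miR-203 was below 0 under 10 and 0 under 3 with a floor, and at -1.49 in the authors' deposited values exceeded 2-fold. The comparisons share arrays, since each heart enters 2 of them, so their values are not independent.

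**Figure D2:**
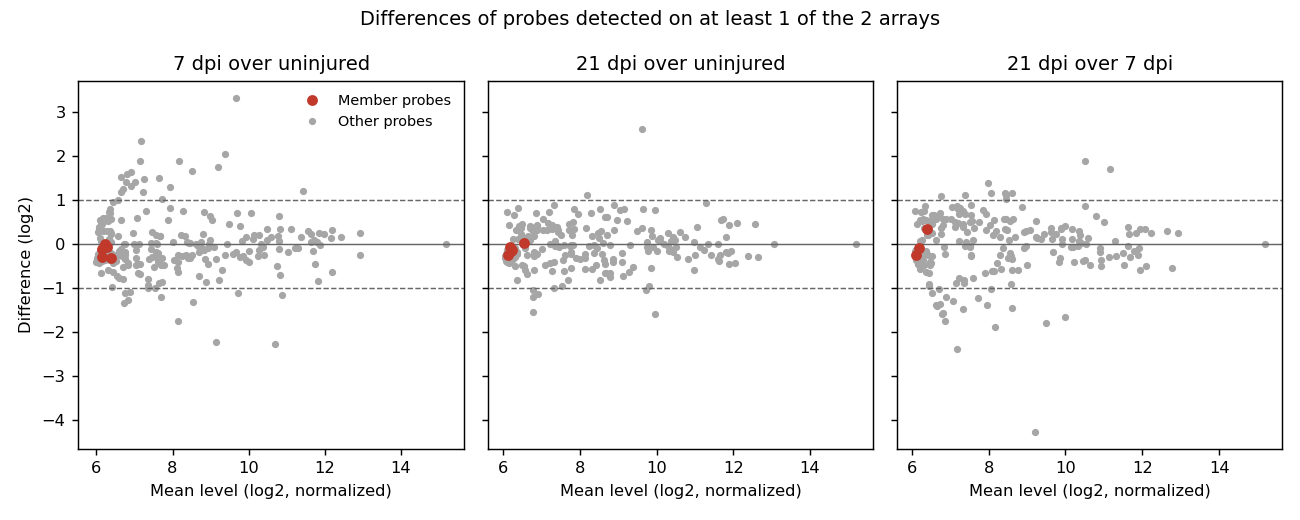
Log2 difference in normalized level (vertical axis) against mean normalized log2 level (horizontal axis) for each miRNA probe detected on at least 1 of the 2 arrays, for 7 dpi over uninjured, 21 dpi over uninjured and 21 dpi over 7 dpi. Red points are the miR-200 family, miR-203 and miR-205 probes, grey points the others, and dashed lines mark a log2 difference of 1 in either direction. The red points sit at the dim end and between -0.31 and 0.34.

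**Figure D3:**
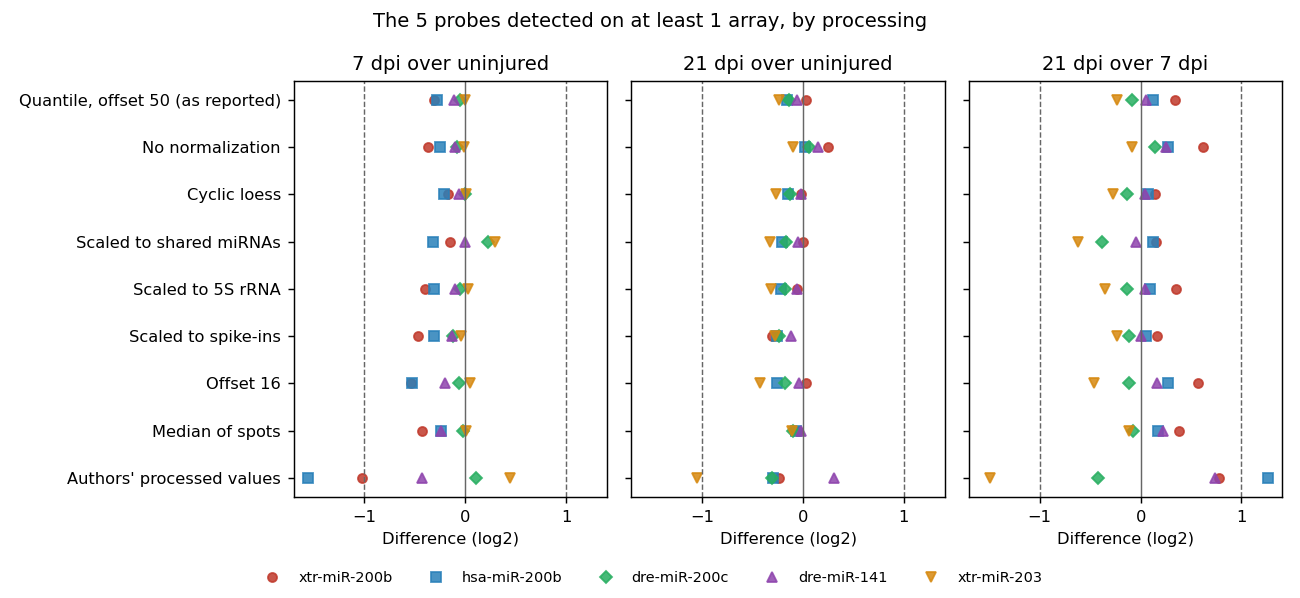
Log2 difference (horizontal axis) of the 5 probes detected on at least 1 array, with 1 row for each processing and 1 panel for each comparison. Dashed lines mark a log2 difference of 1 in either direction. xtr-miR-200b is left of 0 in the panel of 7 dpi over uninjured in every row shown, and points pass the dashed lines only in the authors' processed values.

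By the smallest distance between pairs of differences (7 dpi over uninjured and 21 dpi over uninjured), over 168 other probes detected on all 3 arrays, the probes most like xtr-miR-200b were hsa-miR-181a (-0.32 and 0.03), xtr-miR-146b (-0.29 and -0.02) and hsa-miR-1 (-0.25 and 0). The likeness is one of normalized levels. Of these probes xtr-miR-200b was the dimmest, at a mean normalized log2 level of 6.43, and hsa-miR-1 the brightest, at 12.97. In unnormalized signal above the empty spots, both were lower at 7 dpi than in the uninjured sample. At 21 dpi they went opposite ways, from 14357 to 8256 units for hsa-miR-1 and from 28.5 to 37.3 for xtr-miR-200b. The likeness rests on 3 arrays and is a description.

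Most of the other epithelial miRNAs were not detected, and miR-184 was the main exception. This list held 24 probes of 13 names, among them miR-31, miR-34b, miR-34c, miR-375 and the cluster of miR-183, miR-96 and miR-182. Of these 24, 3 were detected in the uninjured sample, 2 at 7 dpi and 0 at 21 dpi. The shares over all miRNA probes were 16.5%, 16.1% and 13.2%. miR-184, a miRNA abundant in the cornea of mammals, gave the 3 detected in the uninjured sample. Its zebrafish, Xenopus tropicalis and human probes had median spots of 167, 163 and 181 units in the uninjured sample, against 73.2, 77.7 and 77.1 at 7 dpi and 83.1, 84.5 and 88.6 at 21 dpi.

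Each miR-184 probe was lower after injury than in the uninjured sample, with no overlap of spots. At 7 dpi over uninjured all 3 were called lower, with log2 differences of -1.33 ± 0.07 (zebrafish), -1.12 ± 0.05 (Xenopus tropicalis) and -1.28 ± 0.08 (human). They were also called lower at 21 dpi over uninjured, at -1.19 ± 0.09, -1.05 ± 0.05 and -1.13 ± 0.10. Of all miRNA probes compared, 3.92% were called lower at 7 dpi over uninjured and 2.17% at 21 dpi over uninjured. Spots did not overlap for 68.6% and 54.8% of all probes in those 2 comparisons. For probes not detected after injury, lower bounds on the fold under this normalization were 2.33 (zebrafish) and 2.42 (human) for uninjured over 7 dpi. For uninjured over 21 dpi they were 2.03 (zebrafish), 1.93 (Xenopus tropicalis) and 2.17 (human). These bounds are taken between mean levels and count no spot error. The bound of 2.42 is set by the probe's own level at 7 dpi, so it is the measured fold. All 3 probes were below 0 in both comparisons under all 13 other processings. Of these, 12 kept each difference at 2-fold or more, or 13 for the zebrafish probe at 7 dpi. With cyclic loess the differences at 7 dpi were -1.06 (zebrafish), -0.90 (Xenopus tropicalis) and -0.95 (human), so the 2-fold call was lost for the frog and human probes, and the folds were smaller than the bounds above. Without normalization all 3 missed 2-fold at 21 dpi, at -0.99, -0.89 and -0.92. The 3 probes may read 1 RNA and count as 1 miRNA. The remaining detected probe of the list, hsa-miR-34b, was detected at 7 dpi only (median spot 86.7 units, against 60.9 in the uninjured sample), a log2 difference of 0.55 ± 0.04 that was not called.

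Markers of other cells in a whole heart were read beside these, as sums of unnormalized signal above the empty spots, to be read across the hearts within a list and not between lists. The sum of the 14 epithelial probes was 42.4 units in the uninjured sample, -16.4 at 7 dpi and -37.4 at 21 dpi. The median spot over all miRNA probes was 63.8, 68.1 and 59.8 units, beside empty-spot medians of 68.0, 71.7 and 71.4. Dark probes thus stood lowest against the empty spots at 21 dpi. The nerve probes, detected in no heart, had sums of -9.25, -6.99 and -33.7 units. The part of this shift in the epithelial sums was not tested. For the 10 heart muscle probes the sums were 30073, 10171 and 30352 units. After normalization the 8 detected ones had median log2 differences of -0.02 at 7 dpi and 0.05 at 21 dpi over uninjured, with 0 called. Detected probes of related names outside this list differed at 7 dpi over uninjured by -2.22 (xla-miR-1b), -1.15 (hsa-miR-499-5p), -0.83 (xtr-miR-1a) and -0.60 (dre-miR-133c). The probes xla-miR-133d and xtr-miR-133c differed by 0.10 and 0.15. At 21 dpi over uninjured xla-miR-1b differed by -1.04 and hsa-miR-499-5p by 0.58. Leukocyte miRNAs were detected with 5, 6 and 6 of 9 probes (sums of 245, 441 and 860 units). After normalization 3 of the 6 compared were called higher at 7 dpi over uninjured (median 0.89) and 0 of 6 at 21 dpi over uninjured (median 0.60). Over all miRNA probes compared, 8.63% and 0.870% were called higher. Both probes of the liver miRNA miR-122 were detected at 7 dpi only and called higher there than in the uninjured sample. Endothelial miR-126 was detected with 2 of 2 probes in every heart (sums of 5611, 1560 and 5224 units), with median differences of -0.33 at 7 dpi and -0.29 at 21 dpi over uninjured and 0 called. Red blood cell miRNAs were detected with 2, 1 and 2 of 4 probes, smooth muscle miRNAs with 5 of 5 and nerve miRNAs with 0 of 5 in every heart. The part of any of these cells in the epithelial values was not tested.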

How the data were processed

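Each array held 5022 spots, 4095 of them miRNA spots, 3 for each of 1365 probes. Per the file headers, the deposited values are linear spot intensities, from 1-colour (Cy3) arrays run by a service provider, and hold no local background. A further deposited table gives 1 processed intensity for each probe and array, with background correction and scaling not stated in it or in the labels. It correlated with the unnormalized log2 values of detected probes at 0.98, 0.96 and 0.99, had array medians of 1.49, 0.807 and 2.40, and served as an alternative with values under 1 set to 1. The software that read the images was not given in the sources used here. Though the series' design text speaks of paired hybridizations, each file holds 1 sample and was read as such. No newt genome was used.

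Intensities were background corrected in limma 3.58.1 (R 4.3.3) with normexp on the foreground of all spots (offset 50), because the background column that the planned analysis allowed for was absent. After taking log2, the mean of each probe's spots was quantile normalized with the other miRNA probes. The offset compresses differences of dim probes. A fold bound for a probe detected on 1 array sets its level against the higher of its own level and the lowest detected level on the other array. The bound is taken between mean levels and counts no spot error. Calls were also tested on simulated data. With 1 array per group, the number of arrays limits the precision and no p-value is given. The members and gene lists were chosen with earlier results of these data known. The rule for named miRNAs took every member detected on at least 1 array, the brightest undetected probe of each name, the members next to the detection level, the 3 probes most like the member of highest mean level, and up to 4 detected probes of the list of other epithelial miRNAs. Alternatives covered normalization, background, offset, spot summary, detection rule, fold threshold, probe collapsing and the authors' values.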

Additional observations from a re-analysis of the deposited data

How the results depend on the processing

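Signals this close to the empty spots limit what can be read. In the uninjured heart 5 were detected, but 0 above the highest empty spot and 3 with all spots required over percentile 95. There, 4 were detected above the empty-spot median plus 3 robust SDs, 6 against the nearest empty spots and 6 with a level from dark probes. At 7 dpi 3 were detected, but 0 under the first 2 rules, 0 under the robust rule and 1 against the nearest empty spots. Of all miRNA probes, 15.2%, 14.3% and 13.6% passed the robust rule in the uninjured, 7 dpi and 21 dpi hearts. The rule of nearest empty spots passed 16.6%, 15.2% and 12.9% of them. At 21 dpi 1 was detected, but 0 and 0 under the first 2 rules and 6 with a level from dark probes, which lay below the empty-spot median there. The rules on robust SDs, nearest empty spots and dark probes, the scalings with an offset of 50 and the omission of 1 spot of xtr-miR-200b were chosen after seeing the data. Calls stayed at 0 except in the authors' processed values, with 2 at 7 dpi over uninjured, 1 at 21 dpi over uninjured and 1 at 21 dpi over 7 dpi, where spot overlap could not be checked. The share of all miRNA probes past 2-fold in those values is not given here, so these counts cannot be set against it. The medians of those values also differed between arrays, at 1.49, 0.807 and 2.40. The median difference was 0 in all 3 comparisons under the 4 processings with a floor of 32, where 12 to 14 of the 14 members had equal values. At 7 dpi over uninjured the median of -0.11 became -0.20 with an offset of 16, -0.24 with the median of spots, -0.43 in the authors' values, -0.0024 scaled to shared miRNA probes, and -0.20 and -0.20 under the robust and dark-probe detection rules. For 21 dpi over uninjured the median of -0.14 became 0.057 without normalization, -0.30 in the authors' values and -0.25 scaled to spike-in probes. For 21 dpi over 7 dpi the median of -0.09 became 0.14 without normalization, -0.42 in the authors' values, -0.39 scaled to shared miRNA probes, 0.34 under the robust rule and 0.091 under the dark-probe rule. The detection rules change which members enter a median and leave the members' values as they were. The 0.34 is the value of xtr-miR-200b alone, since the robust rule detected 0 members at 7 dpi and 1 at 21 dpi. The cause of the other moves was not tested. Above the highest empty spot no member was left for a median. No paired analysis was possible because each group has 1 array.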

Other observations

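The passenger strands of the same hairpins had 6 probes, and none was detected in any heart. Their median spots ran between 60.1 and 62.6 units in the uninjured sample, 62.1 and 71.6 at 7 dpi and 55.7 and 60.4 at 21 dpi.

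A pair of probes outside the naming rule carried a seed of the family, and they are named after their values were seen. The zebrafish probe dre-miR-429b was detected in no heart. xtr-miR-205b shares the seed of miR-205 and differs from hsa-miR-205 at G18U and U19C, with positions counted from 1 at the 5′ end.
xtr-miR-205b: uCCUUCAUuccaccggauccug
Its spots read 68.6, 72.2 and 74.9 units in the uninjured sample, 84.8, 84.9 and 89.4 at 7 dpi and 68.0, 72.7 and 75.7 at 21 dpi. The 7 dpi spots were above those of both other hearts without overlap, and it was detected at 7 dpi only. The log2 difference was 0.31 ± 0.05 at 7 dpi over uninjured and -0.37 ± 0.05 at 21 dpi over 7 dpi (SE over spots), and neither reached 2-fold. This is the opposite order to xtr-miR-200b, whose spots were lowest at 7 dpi, on arrays where 68.6% and 69.3% of all probes compared had spots that did not overlap.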
